A study of Mus musculus with 24 samples.

Results

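Spaceflight was compared with ground housing in the bone marrow of mice that lack Nrf2. The comparison took the 6 FL-KO and the 6 GC-KO libraries of a study of 24 mice, as their labels name them, and every gene with a TPM above 1 in at least 1 of the 24 libraries, which left 12373 of 54752 genes. TPM is the share of a gene among all transcripts of a library, scaled to a fixed total. The other 12 libraries came from wild-type mice (GC-WT and FL-WT), and the study asked how flight changes hematopoiesis and whether Nrf2 modifies the response. All mice were males on a C57BL/6 background. Both groups compared carry the same genetic Nrf2 knockout, so that flight and ground are compared in the absence of Nrf2. FL-KO mice stayed on the International Space Station for 31 days, and their marrow was collected 2 days after landing. GC-KO mice were housed on the ground in the same type of single cage. Flight mice were 8 weeks old when they were shipped 3 weeks before launch. Cells were flushed from the right pelvis and tibia of each mouse and frozen before RNA was isolated, with 1 library per mouse. The ground experiment was run in Japan and the flight mice were sampled in the United States, so that flight and sampling site cannot be told apart.

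Nrf2 is a transcription factor that, with a small Maf protein as its partner, binds antioxidant response elements and switches on genes for glutathione, NADPH and detoxification. Bone marrow is the site of red cell production. Erythroblasts there express the transcription factors Gata1, Zfpm1, Tal1 and Klf1, take up iron, make heme and globin, assemble a spectrin-based membrane skeleton, divide several times and finally lose their nucleus and organelles. Neutrophil precursors are the other abundant lineage of mouse marrow, and they fill first primary and then secondary granules before they mature.

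The knocked-out gene, Nfe2l2 (ENSMUSG00000015839.6), lies on chromosome 2, 75675513 to 75704641 of GRCm38. It was at 3.6 to 7.18 TPM (median 4.89) in GC-KO mice and 2.22 to 4.31 TPM (median 3.105) in FL-KO mice. The mean was 21.3 TPM in GC-WT mice and 18.6 TPM in FL-WT mice, so all Nrf2-KO mice were below the mean of either wild-type group. The remaining TPM does not show which part of the gene was transcribed.

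The libraries differed in composition. In GC-KO mice 44.7 ± 4.68% (SD, n = 6) of TPM belonged to the small structural RNAs Rn7s1, Rn7s2, Rn7sk, Rpph1 and Rmrp, and in FL-KO mice 51.2 ± 4.46% (SD, n = 6), with p = 0.0152 in an exact two-sided permutation test and 0.0227 after adjustment over 6 such tests. A ground library had 10361 ± 449.98 (SD, n = 6) genes above 1 TPM and a flight library 9229 ± 482 (SD, n = 6), with an exact permutation p = 0.00866, adjusted 0.0173. The median log2 fold change of the 12373 tested genes was -0.29. When TPM values were rescaled by the median-of-ratios method, called scaling below, this median was -0.0012. Leaving out the 5 small RNAs gave a median of -0.21, and 189 downregulated DEGs in the test below in place of 264. Levels and tests are given at TPM as deposited, and gene groups are also given as their median minus that of all genes (against all genes) and with scaling. The files used here hold no read counts, so the depth of the libraries is unknown and no counting error can be given.

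Genes were tested with limma on log2(TPM + 1), a scale that understates changes of genes at a few TPM. A gene counted as a DEG when its p, adjusted by the Benjamini-Hochberg method, was under 0.1 and its level changed at least 2-fold. In FL-KO mice, 264 genes were downregulated DEGs, 2.13% of the genes tested, and 0 genes were upregulated DEGs (0%). Without the fold threshold, 6565 genes (53.1%) were lower and 37 genes (0.299%) higher at an adjusted p under 0.1, and at an unadjusted p under 0.05 the limma fit had 6456 lower and 36 higher. With scaling, 2525 genes (20.4%) were lower and 2367 genes (19.1%) higher at that adjusted p, with 22 downregulated DEGs (0.178%) and 8 upregulated ones (0.0647%). All 22 were among the 264. All 6 FL-KO mice lay below all 6 GC-KO mice for 2282 genes (18.4%) and above them for 4 genes (0.0323%). With scaling, these counts were 856 (6.92%) and 740 (5.98%).

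Of the 264 downregulated DEGs, 240 were protein coding, 228 showed no overlap between the groups and 257 were also lower at an adjusted p under 0.1 with scaling. Their log2 fold changes had a median of -1.13. The fold threshold was not a natural gap, as 100 of them lay between -1.1 and -1 and another 169 genes with an adjusted p under 0.1 lay between -1 and -0.9. The 264 genes had a median GC content of transcripts of 55.3% against 49.1% over all tested genes, and a median length of 3586 against 2990.5 nt. After each library's trend with transcript GC content and length was removed, 18 downregulated and 3 upregulated DEGs were left, and all 18 were among the 264. The number also rested on the library of GC-KO mouse 11, which had the lowest share of small RNAs, at 35.4% of TPM. Without it, 172 genes were downregulated DEGs.

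The genes of red cell formation were the largest listed group. The lists of erythroid genes held 104 tested genes, and 48 of them (46.2%) were downregulated DEGs, against 2.13% of all tested genes. These lists were chosen with earlier results of these data known, so this contrast is a description and not an independent test. Those 48 were 18.2% of all downregulated DEGs. With a pseudocount of 0.1, 56 erythroid genes were among 925 downregulated DEGs, a share of 6.05%. On log2(TPM + 1), genes at a few TPM reach a 2-fold change less easily. The median of mean levels in GC-KO mice was 13.2 TPM for downregulated DEGs on that scale and 3.52 TPM for all tested genes. How much this difference in level adds to the contrast with all tested genes was not tested. With scaling 9 of the 104 were downregulated DEGs, with quantile normalization 11 and with the GC content and length trend removed 7. In RNA of bulk marrow, fewer erythroid cells and less of these RNAs per cell cannot be told apart. By flow cytometry of frozen marrow, the study reported a higher share of early erythroid progenitors in FL-KO than in GC-KO mice. Later erythroid cells survived freezing poorly and were left out. In the same measurements B progenitors were less frequent, NK cells more frequent and megakaryocytes little changed. How these cell shares relate to the RNA levels was not tested.

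**Figure D1:**
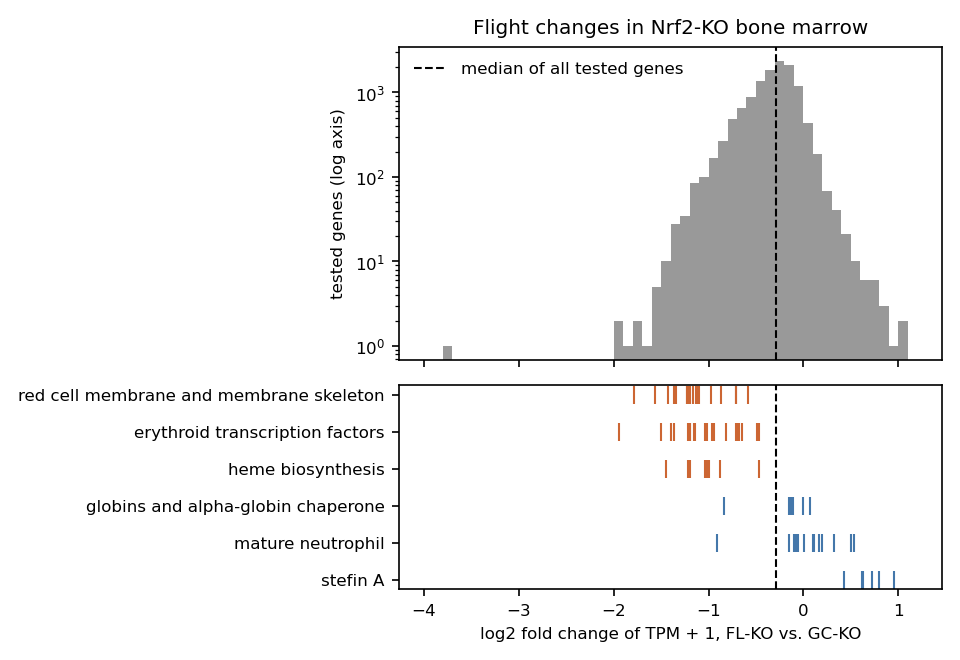
Upper panel, number of tested genes (log axis) by log2 fold change of TPM + 1 in FL-KO vs. GC-KO mice; lower panel, each tick is a member of a gene list on the same axis. The dashed line marks the median of all 12373 genes at -0.29: membrane, transcription factor and heme biosynthesis genes lie to its left, and all stefin A genes, all but 1 mature neutrophil gene and all but 1 globin gene to its right.

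Among protein-coding DEGs with no overlap and a mean of at least 5 TPM in the higher group, an erythroid transcription factor fell most. Over all 264 downregulated DEGs, the largest log2 fold change was -3.77. Zfpm1, also called FOG-1, the cofactor of Gata1 (ENSMUSG00000049577.15, chromosome 8, 122282141 to 122337251), was at 11.9 to 25.7 TPM (median 16.4) in GC-KO mice and 3.15 to 5.88 TPM (median 3.66) in FL-KO mice. The highest flight mouse was below the lowest ground mouse (log2 fold change -1.94, SE 0.21, adjusted p = 8.3e-06). Klf1, which activates globin, heme and membrane genes in erythroblasts, was at 28.9 to 50.7 TPM (median 37.4) in GC-KO mice and 10.1 to 17.8 TPM (median 12.5) in FL-KO mice and fell in every flight mouse below every ground mouse (log2 fold change -1.496, SE 0.19, adjusted p = 1.45e-05). Gata1, the master regulator of the lineage, was at 12.3 to 19.3 TPM (median 14.9) in GC-KO mice and 5.17 to 8.44 TPM (median 5.95) in FL-KO mice (log2 fold change -1.15, SE 0.17, adjusted p = 3.58e-05). Its partners also fell: Tal1 had a log2 change of -1.1995 ± 0.18 (SE, adjusted p = 3.8e-05) and Tcf3, which pairs with Tal1, of -1.36 ± 0.18 (SE, adjusted p = 1.84e-05). E2f2, a cell cycle regulator of erythroblasts, changed by -1.3998 ± 0.18 (SE, adjusted p = 1.45e-05). In all, 11 of 20 factors were downregulated DEGs, against 2.13% of all genes, and 2 with scaling, against 0.178%. With scaling 18 were lower, against 20.4% of all genes. Nfe2, at -0.65 ± 0.16 (SE, adjusted p = 0.00315), and Lmo2, at -0.71 ± 0.16 (SE, adjusted p = 0.0016), passed the test but not the fold threshold. The list had a median of -0.74 against all genes, -0.64 with scaling.

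The promoters of the genes with the largest decreases among transcription factor, membrane and heme genes are shown because these genes moved together. The sequences are the 250 bases before the transcription start from RefSeq on GRCm38, 5′ to 3′ along the gene. Capitals mark a GATA motif (AGATAA or TGATAA, which differ in their first letter) or the core of an antioxidant response element (TGACNNNGC), on either strand. The Klf1-type motif CCACACCC was also searched and was in none of these windows.
Zfpm1 chr8:122281891-122282140 (+ strand): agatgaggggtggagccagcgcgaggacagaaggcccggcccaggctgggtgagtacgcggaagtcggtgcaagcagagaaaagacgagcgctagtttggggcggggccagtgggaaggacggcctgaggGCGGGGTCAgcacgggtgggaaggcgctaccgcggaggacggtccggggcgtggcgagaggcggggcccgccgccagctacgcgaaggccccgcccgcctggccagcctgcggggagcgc
Klf1 chr8:84901732-84901981 (+ strand): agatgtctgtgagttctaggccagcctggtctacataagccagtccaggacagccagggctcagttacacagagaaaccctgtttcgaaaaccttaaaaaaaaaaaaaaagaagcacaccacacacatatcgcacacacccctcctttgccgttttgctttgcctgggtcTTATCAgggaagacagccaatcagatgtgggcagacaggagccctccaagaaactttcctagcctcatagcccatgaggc
Sptb chr12:76710548-76710797 (- strand): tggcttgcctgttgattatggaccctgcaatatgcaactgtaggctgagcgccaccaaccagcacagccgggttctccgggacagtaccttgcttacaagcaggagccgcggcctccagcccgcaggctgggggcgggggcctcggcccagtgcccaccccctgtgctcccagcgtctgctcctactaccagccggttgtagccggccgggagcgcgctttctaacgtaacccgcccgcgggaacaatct
The promoter of Zfpm1 held 1 antioxidant response element core, on the reverse strand, starting 120 bases before the start. That of Klf1 held 1 GATA motif, also on the reverse strand, 80 bases before it. The window of Sptb held none of these letters. Slc4a1, the fourth gene, is named only.

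Over windows of 300 bases, with 50 bases after the start, GATA motifs were in 12 of the 34 promoters matched to erythroid DEGs (35.3%), in 20 of 161 promoters of the other downregulated DEGs (12.4%) and in 886 of 8612 promoters of all tested genes (10.3%). The 12 included Klf1, Tal1, Epor, Cpox, Epb42 and Rhd. Antioxidant response element cores were in 17.6% of the erythroid DEG promoters and 15% of all, while CCACACCC was in 0 of 34 and in 4.05% of all. The median GC content of these promoters was 59.3% in the erythroid DEGs and 60.7% in all genes. Erythroid list genes that were not DEGs were not counted apart, so these shares do not tie the motif to the decrease. A match is a stretch of letters and does not show that a factor binds there.

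Among the lists that fell, red cell membrane genes lay furthest from the median of all genes. Slc4a1, the band 3 anion exchanger that anchors the membrane skeleton (ENSMUSG00000006574.15, chromosome 11, 102348824 to 102366203), was at 209.8 to 522 TPM (median 307) in GC-KO mice and 73 to 121 TPM (median 86.6) in FL-KO mice. The groups did not overlap (log2 fold change -1.78, SE 0.199, adjusted p = 8.3e-06). Sptb, which encodes beta-spectrin, was at 18.7 to 48.5 TPM (median 29.8) in GC-KO mice and 6.77 to 13.9 TPM (median 8.78) in FL-KO mice (log2 fold change -1.56, SE 0.22, adjusted p = 2.19e-05). Ank1, the ankyrin that ties spectrin to band 3, was at 18.8 to 45.5 TPM (median 26.7) in GC-KO mice and 7.32 to 13.8 TPM (median 9.45) in FL-KO mice (log2 fold change -1.42, SE 0.204, adjusted p = 2.68e-05). These 3 genes, like Zfpm1 and Klf1, were DEGs with and without scaling. The other skeleton and blood group genes showed smaller decreases of like size: Dmtn, which encodes dematin, changed by -1.36 ± 0.19 (SE, adjusted p = 2.19e-05), Rhd, an Rh antigen, by -1.35 ± 0.17 (SE, adjusted p = 1.45e-05), Add2, beta-adducin, by -1.34 ± 0.17 (SE, adjusted p = 1.45e-05) and Epb42, protein 4.2, by -1.19 ± 0.17 (SE, adjusted p = 2.4e-05). Epb41, protein 4.1, did not reach the fold threshold (log2 fold change -0.97, SE 0.198, adjusted p = 0.000711). Of 19 membrane genes, 14 were downregulated DEGs, against 2.13% of all genes, and 3 with scaling, against 0.178%. All 19 showed no overlap between the groups, against 18.4% of all genes, and 18 were lower with scaling, against 20.4%. The list median was -0.904 against all genes, -0.76 with scaling and -0.86 with the trend in GC content and length removed.

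Enzymes of heme synthesis fell along most of the pathway, and its first step changed least. Alas2, the erythroid enzyme that starts the pathway, was at 658 to 964 TPM (median 781) in GC-KO mice and 446 to 745 TPM (median 573) in FL-KO mice, and the groups overlapped (log2 fold change -0.47, SE 0.18, adjusted p = 0.0428). It was the only one of the 8 enzymes that did not pass the test with scaling, at -0.02 ± 0.17 (SE, adjusted p = 0.953). Cpox, coproporphyrinogen oxidase, was at 30.6 to 60.5 TPM (median 38.9) in GC-KO mice and 10.96 to 21.98 TPM (median 13.1) in FL-KO mice with no overlap (log2 fold change -1.45, SE 0.203, adjusted p = 2.4e-05). Ppox, the next enzyme, changed by -1.22 ± 0.16 (SE, adjusted p = 1.45e-05), and the earlier enzymes Alad and Uros changed by -1.19 ± 0.19 (SE, adjusted p = 6.21e-05) and -1.02 ± 0.15 (SE, adjusted p = 4.41e-05). Urod, at -0.998 ± 0.16 (SE, adjusted p = 7.73e-05), lay at the fold threshold just outside it, and Fech, which inserts the iron, changed by -0.88 ± 0.16 (SE, adjusted p = 0.000234). The list had 5 DEGs among 8 genes, against 2.13% of all genes, and 1 with scaling, against 0.178%. With scaling 7 were lower, against 20.4% of all genes. The list median was -0.74 against all genes and -0.59 with scaling.

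Genes of iron and precursor import fell, and those of iron storage changed less. Slc6a9, the glycine transporter that supplies heme synthesis, was at 9.7 to 22.9 TPM (median 13.96) in GC-KO mice and 3.77 to 6.4 TPM (median 4.42) in FL-KO mice (log2 fold change -1.45, SE 0.18, adjusted p = 1.45e-05). The mitochondrial iron importer Slc25a37, mitoferrin 1, was at 137 to 274 TPM (median 188) in GC-KO mice and 67.8 to 107 TPM (median 79.4) in FL-KO mice (log2 fold change -1.21, SE 0.19, adjusted p = 4.65e-05). Its partner Abcb10 changed by -1.297 ± 0.16 (SE, adjusted p = 1.45e-05). Tfrc, the transferrin receptor, was at 90.5 to 155 TPM (median 92.7) in GC-KO mice and 35.96 to 75.4 TPM (median 45.98) in FL-KO mice, with the groups apart at TPM as deposited (log2 fold change -1.17, SE 0.21, adjusted p = 0.000243). Slc11a2 and Steap3, which move and reduce iron in endosomes, changed by -1.002 ± 0.16 (SE, adjusted p = 5.45e-05) and -1.102 ± 0.19 (SE, adjusted p = 0.000129). By contrast, the ferritin genes Fth1 and Ftl1 had log2 fold changes of -0.39 ± 0.13 (SE, adjusted p = 0.021) and -0.18 ± 0.13 (SE, adjusted p = 0.247), and with scaling of 0.06 ± 0.09 (SE, adjusted p = 0.6248) and 0.27 ± 0.096 (SE, adjusted p = 0.0356). In this list, 6 of 14 genes were downregulated DEGs, against 2.13% of all genes, and 1 with scaling, against 0.178%. With scaling 9 were lower and 1 higher, against 20.4% and 19.1% of all genes. The list median was -0.56 against all genes and -0.496 with scaling.

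The abundant globin transcripts did not pass the test at TPM as deposited. Hba-a1 was at 38614 to 54799 TPM (median 46297) in GC-KO mice and 33220.0 to 50055 TPM (median 42385) in FL-KO mice, and Hbb-bs at 57615 to 91575 TPM (median 79361) in GC-KO mice and 59739 to 87487 TPM (median 79021) in FL-KO mice. Both groups spanned nearly the same range. The log2 fold changes were -0.13 ± 0.16 (SE, adjusted p = 0.48) for Hba-a1, -0.11 ± 0.16 (SE, adjusted p = 0.563) for Hba-a2, -0.00016 ± 0.18 (SE, adjusted p = 1) for Hbb-bs and -0.15 ± 0.17 (SE, adjusted p = 0.48) for Hbb-bt, and with scaling between 0.302 for Hbb-bt (adjusted p = 0.242) and 0.45 for Hbb-bs (adjusted p = 0.087). Reads of the alpha-globin pair and of the beta-globin pair can be split between near-identical copies, with 67.5% of the 50-base windows of Hba-a1 and 65.8% of those of Hbb-bs also present in other genes. Globin genes together made up 20.5 ± 3.11% (SD, n = 6) of TPM on the ground and 19.4 ± 2.595% (SD, n = 6) in flight, with an exact permutation p = 0.589. Of the 6 tested globin genes, 1 was lower at an adjusted p under 0.1, against 53.1% of all genes. It was Hbq1b, which is named after its value was seen. The list had a median of 0.16 against all genes, 0.33 with scaling, but -0.17 with quantile normalization.

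Of 14 genes of reticulocyte maturation and organelle clearance, 6 were downregulated DEGs (1 with scaling) and 9 were lower with scaling, while 3 lay above the median of all genes. Of 13 erythroid carriers and carbonic anhydrases, 5 were downregulated DEGs (1 with scaling) and 9 were lower with scaling. The medians were -0.5998 against all genes and -0.46 with scaling for the former, and -0.64 against all genes and -0.52 with scaling for the latter. Over all genes, 2.13% were downregulated DEGs (0.178% with scaling) and 20.4% were lower with scaling. Ube2o, the ubiquitin enzyme that clears ribosomal and other proteins from reticulocytes, was at 15.1 to 47.6 TPM (median 28.6) in GC-KO mice and 5.78 to 12.3 TPM (median 6.13) in FL-KO mice (log2 fold change -1.79, SE 0.26, adjusted p = 3.06e-05). The ground mice spread widely but stayed above every flight mouse. Trim58 and Xpo7, which act as the nucleus is lost, changed by -1.13 ± 0.16 (SE, adjusted p = 2.62e-05) and -1.15 ± 0.18 (SE, adjusted p = 6.34e-05), and the autophagy kinase Ulk1 by -1.09 ± 0.18 (SE, adjusted p = 0.000111). Bnip3l, the mitophagy receptor of reticulocytes, changed by -0.29 ± 0.14 (SE, adjusted p = 0.0965), the same as the median of all genes. Aqp1, the water channel, was at 85.8 to 149 TPM (median 105) in GC-KO mice and 29.8 to 71.6 TPM (median 41.5) in FL-KO mice (log2 fold change -1.33, SE 0.19, adjusted p = 2.62e-05). Slc7a5, an amino acid transporter, was at 5.83 to 22.98 TPM (median 11.2) in GC-KO mice and 2.64 to 4.62 TPM (median 3) in FL-KO mice (log2 fold change -1.57, SE 0.23, adjusted p = 2.98e-05), and the urea transporter Slc14a1 changed by -1.12 ± 0.19 (SE, adjusted p = 0.000115). Of the carbonic anhydrases, Car2 was at -0.87 ± 0.18 (SE, adjusted p = 0.000866) and Car1 at -0.34 ± 0.19 (SE, adjusted p = 0.142), which did not pass the test. Epor, the erythropoietin receptor, was at 11.8 to 21.6 TPM (median 16.6) in GC-KO mice and 5.18 to 8.8 TPM (median 5.69) in FL-KO mice (log2 fold change -1.31, SE 0.17, adjusted p = 1.45e-05). It was the only DEG among 10 tested genes of erythropoietin signalling, whose median of -0.17 against all genes was the smallest decrease among the erythroid lists other than globins. Its downstream kinase Pim1 changed by -0.81 ± 0.14 (SE, adjusted p = 0.00013) and the survival factor Bcl2l1 by -0.96 ± 0.17 (SE, adjusted p = 0.000159).

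**Figure D2:**
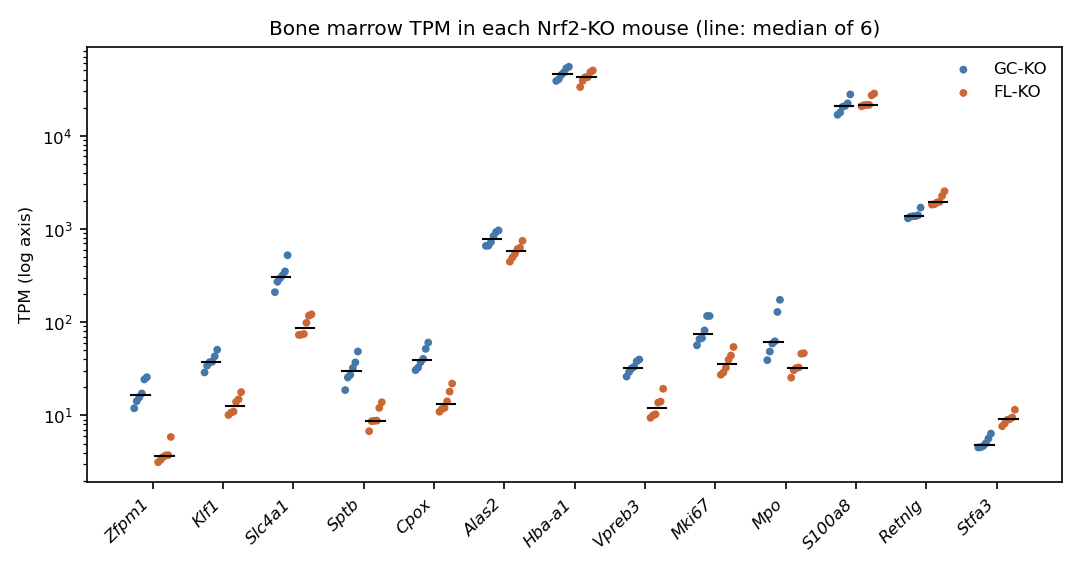
TPM (log axis) of selected genes in each Nrf2-KO mouse, with GC-KO mice in blue, FL-KO mice in orange and a line at the median of 6 mice. The groups lie apart for Zfpm1, Klf1, Slc4a1, Sptb, Cpox, Vpreb3, Mki67, Retnlg and Stfa3, and overlap for Alas2, Hba-a1, Mpo and S100a8.

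Several large decreases lay outside these lists. Mknk2, a kinase that phosphorylates the translation factor eIF4E, was at 18.6 to 37.2 TPM (median 23.9) in GC-KO mice and 6.71 to 12.5 TPM (median 7.34) in FL-KO mice (log2 fold change -1.55, SE 0.19, adjusted p = 1.45e-05). Pigq, of the enzyme complex that starts GPI anchor synthesis, was at 34.5 to 73.1 TPM (median 46.6) in GC-KO mice and 13.2 to 22.4 TPM (median 15.3) in FL-KO mice (log2 fold change -1.53, SE 0.18, adjusted p = 1.07e-05). Rbm38, an RNA-binding protein of erythroid splicing, was at 39.5 to 84.97 TPM (median 55.5) in GC-KO mice and 15.5 to 25.6 TPM (median 19.9) in FL-KO mice (log2 fold change -1.46, SE 0.199, adjusted p = 1.98e-05). None of these 3 genes overlapped between the groups, and all were DEGs with scaling as well. Also DEGs with scaling were Rnf123, a ubiquitin ligase, Tgfb1, the cytokine TGF-beta 1, Epn1, of endocytosis, Lmna, lamin A/C, Samd14 and Ttyh3, whose log2 fold changes at TPM as deposited lay between -1.43 and -1.38. The small nuclear RNA gene Gm26316, at 51.9 to 77.2 TPM (median 64.3) in GC-KO mice and 4.01 to 36.7 TPM (median 22.6) in FL-KO mice, shared 84.5% of its 50-base windows with other genes and cannot be told apart from them. Gm12260 changed by -1.53 ± 0.198 (SE, adjusted p = 1.45e-05). The variable segments Igkv8-27 and Ighv1-55 completed the 22 genes. Igkv8-27 rested on 1 GC-KO mouse, at 63.8 TPM against 4.66 to 10.95 in the others.

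Genes of cell division were lower as a group. All 34 tested genes of DNA replication and mitosis were lower at an adjusted p under 0.1, against 53.1% of all genes, and 27 of them were lower with scaling, against 20.4%. The proliferation marker Mki67 was at 56.5 to 117 TPM (median 74.6) in GC-KO mice and 27.3 to 54.2 TPM (median 35.98) in FL-KO mice (log2 fold change -1.12, SE 0.21, adjusted p = 0.000386). Cdt1, which licenses replication origins, was at 6.05 to 12.8 TPM (median 7.52) in GC-KO mice and 2.3 to 4.17 TPM (median 2.67) in FL-KO mice (log2 fold change -1.28, SE 0.19, adjusted p = 4.2e-05). Rrm2, of ribonucleotide reductase, changed by -1.04 ± 0.18 (SE, adjusted p = 0.000115), the mitotic kinase Plk1 by -1.19 ± 0.21 (SE, adjusted p = 0.000163) and the helicase subunits Mcm2 and Mcm5 by -1.12 ± 0.201 (SE, adjusted p = 0.000217) and -1.003 ± 0.18 (SE, adjusted p = 0.000193). These were the 6 DEGs among the 34 genes, against 2.13% of all genes. Top2a, at -0.95 ± 0.17 (SE, adjusted p = 0.000237), and Pcna, at -0.51 ± 0.14 (SE, adjusted p = 0.00801), did not reach the fold threshold. FL-KO mouse 9 lay nearest to the ground mice in this list, and the mice of the groups lay between 0.13 and 0.41 in GC-KO mice and between -0.41 and 0.06 in FL-KO mice when each list was centred on all genes of the same mouse.

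Replication-dependent histone genes, which are transcribed in S phase, made up a large part of the RNA. Their summed level was 67724 to 82388 TPM in GC-KO mice and 39858 to 55771 TPM in FL-KO mice, with no overlap. Of 67 tested histone genes, 52 showed no overlap at TPM as deposited, against 18.4% of all genes, but 2 did with scaling, against 6.92%. Hist1h2ab was at 2186 to 2931 TPM (median 2668) in GC-KO mice and 935 to 1498 TPM (median 1271) in FL-KO mice (log2 fold change -1.05, SE 0.16, adjusted p = 4.38e-05). Hist2h3c2 changed by -1.08 ± 0.17 (SE, adjusted p = 6.31e-05), Hist1h2ak by -1.02 ± 0.17 (SE, adjusted p = 8.62e-05) and Hist1h3c by -0.702 ± 0.14 (SE, adjusted p = 0.0005). Hist1h4n, the most abundant of those named, was at 5400.1 to 6382 TPM (median 5530.2) in GC-KO mice and 3906 to 5349 TPM (median 4539) in FL-KO mice and changed less (log2 fold change -0.32, SE 0.11, adjusted p = 0.0244). Copies share much of their sequence, from 47% of 50-base windows in Hist1h3c to 93.1% in Hist1h2ap, so that the values of single copies are uncertain. The list median was -0.33 against all genes and -0.17 with scaling.

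Genes of B cell precursors were lower, with 8 of 9 genes of the pre-B receptor and V(D)J recombination below at an adjusted p under 0.1 (53.1% of all genes). Vpreb3 was at 26.1 to 39.8 TPM (median 32.6) in GC-KO mice and 9.43 to 19.3 TPM (median 12.01) in FL-KO mice (log2 fold change -1.33, SE 0.21, adjusted p = 7.57e-05). Igll1, which encodes lambda 5, was at 9.47 to 11.7 TPM (median 10.5) in GC-KO mice and 3.11 to 7.56 TPM (median 5.17) in FL-KO mice and also showed no overlap (log2 fold change -0.96, SE 0.21, adjusted p = 0.00153). Cd79a, a signalling chain of the B cell receptor, changed by -0.87 ± 0.2005 (SE, adjusted p = 0.00184). Of these 9 genes, 7 were lower with scaling (20.4% of all genes), and the list had a median of -0.58 against all genes. Mouse by mouse the list overlapped, since FL-KO mouse 4, at 0.1323 against all genes of the same mouse, lay just above GC-KO mouse 9, at 0.1316. Among general B lineage genes, 5 of 12 were lower with scaling and 0 were DEGs. Ighm was at 125 to 266 TPM (median 171) in GC-KO mice and 75.9 to 137 TPM (median 95.005) in FL-KO mice (log2 fold change -0.85, SE 0.29, adjusted p = 0.0217), while Igkc, the kappa constant region, had a log2 change of -0.26 ± 0.26 (SE, adjusted p = 0.416). Igha, the IgA constant region, changed by -1.18 ± 0.34 (SE, adjusted p = 0.00882), with overlapping groups. Of 93 heavy chain and 90 kappa variable segments tested, 3 and 3 were downregulated DEGs, against 2.13% of all genes.

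Platelet genes were lower with a wide spread between mice. Ppbp, pro-platelet basic protein, was at 46.6 to 95.2 TPM (median 75.01) in GC-KO mice and 13.8 to 69.7 TPM (median 34.99) in FL-KO mice (log2 fold change -1.03, SE 0.34, adjusted p = 0.0182), and Pf4, platelet factor 4, at 22.7 to 52.5 TPM (median 43.3) in GC-KO mice and 10.4 to 36.6 TPM (median 23.7) in FL-KO mice (log2 fold change -0.84, SE 0.28, adjusted p = 0.0198). The groups overlapped for both. Gp1bb changed by -1.05 ± 0.296 (SE, adjusted p = 0.00784), but shared 92.8% of its windows with other genes. All 15 genes of the list were lower at an adjusted p under 0.1, against 53.1% of all genes, and 8 were lower with scaling, against 20.4%. The list also overlapped mouse by mouse, with FL-KO mouse 9 at 0.401 and GC-KO mouse 11 at -0.26 against all genes of the same mouse. Markers of monocytes, macrophages, plasmacytoid dendritic cells, T and NK cells and stem and progenitor cells had 0 DEGs in 10, 13, 7, 19 and 9 tested genes, against 2.13% of all genes. Their medians against all genes lay between -0.204 for macrophages and 0.13 for T and NK cells. Of the T and NK cell genes, 7 were higher with scaling, against 19.1% of all genes, and by mouse the list lay between -0.199 and -0.04 in GC-KO mice and between 0.002 and 0.11 in FL-KO mice, with no overlap. Of bone and stroma, Col1a1, a collagen of osteoblasts, was the only DEG at -1.18 ± 0.32 (SE, adjusted p = 0.0056). All 9 tested genes of that list were lower at an adjusted p under 0.1, against 53.1% of all genes. With scaling 2 were lower, against 20.4% of all genes, and the list median was -0.32 against all genes. By mouse the list overlapped, from -0.48 to 0.399 in FL-KO mice and from -0.31 to 0.61 in GC-KO mice, and as in the platelet list GC-KO mouse 11 was the lowest ground mouse and FL-KO mouse 9 the highest flight mouse. Skeletal muscle markers summed to at most 8.65 TPM in any mouse.

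Mature neutrophil genes stood on the other side of the median, with the granule lists nearer to it. Retnlg, which encodes resistin-like gamma of mature neutrophils, was at 1299 to 1693 TPM (median 1371) in GC-KO mice and 1823 to 2536 TPM (median 1934) in FL-KO mice, and rose in all 6 flight mice above all 6 ground mice (log2 fold change 0.53, SE 0.13, adjusted p = 0.00364). S100a8 and S100a9, the subunits of calprotectin, were among the most abundant mRNAs. S100a8 was at 16758 to 27686 TPM (median 20648) in GC-KO mice and 20674 to 28336 TPM (median 21357) in FL-KO mice, with overlapping groups (log2 fold change 0.16, SE 0.14, adjusted p = 0.316). With scaling, the groups lay apart at 0.61 ± 0.13 (SE, adjusted p = 0.00174) for S100a8 and 0.64 ± 0.14 (SE, adjusted p = 0.00179) for S100a9. Of the 14 mature neutrophil genes, 13 were higher with scaling, against 19.1% of all genes, and the list had a median of 0.34 against all genes, 0.17 with the GC content and length trend removed. The exception, named after its value was seen, was Csf3r, the receptor of granulocyte colony-stimulating factor, which was lower. Of 8 primary granule genes, 6 were higher and 1 lower with scaling, and of 11 secondary and tertiary granule genes 6 and 1. Over all genes, 19.1% were higher and 20.4% lower. The list medians were 0.18 against all genes and 0.304 with scaling for primary granules, and 0.12 against all genes and 0.27 with scaling for the later ones. With the GC content and length trend removed, they were 0.16 and 0.05 against all genes. Mpo, myeloperoxidase, was a downregulated DEG at 39.1 to 174 TPM (median 60.7) in GC-KO mice and 25.4 to 46.5 TPM (median 32.5) in FL-KO mice (log2 fold change -1.06, SE 0.31, adjusted p = 0.00981), though the groups overlapped. The primary granule proteases Elane and Prtn3 had log2 fold changes of -0.21 ± 0.22 (SE, adjusted p = 0.43) and -0.05 ± 0.18 (SE, adjusted p = 0.818), and with scaling of 0.24 ± 0.15 (SE, adjusted p = 0.244) and 0.396 ± 0.13 (SE, adjusted p = 0.0226). Among secondary and tertiary granule genes, Mmp9, gelatinase B, was downregulated by -1.17 ± 0.33 (SE, adjusted p = 0.00821), whereas Camp, Ngp and Lcn2 had log2 fold changes of 0.18 ± 0.15 (SE, adjusted p = 0.304), -0.13 ± 0.17 (SE, adjusted p = 0.532) and -0.22 ± 0.18 (SE, adjusted p = 0.297). With scaling these were 0.63 ± 0.14 (SE, adjusted p = 0.00259), 0.32 ± 0.09 (SE, adjusted p = 0.00921) and 0.23 ± 0.11 (SE, adjusted p = 0.121).

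The stefin A genes, a family of cysteine protease inhibitors clustered on chromosome 16 and expressed in neutrophils, were the clearest group on the higher side. Stfa3 (ENSMUSG00000054905.2, chromosome 16, 36450537 to 36455392) was at 4.53 to 6.39 TPM (median 4.88) in GC-KO mice and 7.66 to 11.5 TPM (median 9.05) in FL-KO mice, with no overlap (log2 fold change 0.72, SE 0.16, adjusted p = 0.00155). Stfa1 was at 6.03 to 10.1 TPM (median 7.75) in GC-KO mice and 10.1 to 18.98 TPM (median 15.2) in FL-KO mice (log2 fold change 0.8001, SE 0.18, adjusted p = 0.00158). BC100530, with the largest rise of the family and named for it, was at 2.73 to 6.77 TPM (median 3.68) in GC-KO mice and 5.97 to 13.04 TPM (median 8.47) in FL-KO mice (log2 fold change 0.95, SE 0.203, adjusted p = 0.00104). The more abundant members rose less, as Stfa2l1 changed by 0.61 ± 0.21 (SE, adjusted p = 0.0237) and Gm5483 by 0.42 ± 0.202 (SE, adjusted p = 0.0877). All 6 tested members were higher at an adjusted p under 0.1, against 0.299% of all genes, but 0 reached the fold threshold at TPM as deposited, and 4 did with scaling. With scaling, all 6 showed no overlap, against 5.98% of all genes. Copies share sequence, with 33.5% of the windows of BC100530, 26.9% of Stfa1 and 0% of Stfa3 found in other genes. The 4 genes with no overlap on the higher side were Retnlg, Stfa3, Slc25a20, the mitochondrial carnitine carrier, and Ms4a8a, of which the last pair was picked for this pattern. Acot1, an acyl-CoA thioesterase, was at 0.37 to 0.81 TPM (median 0.485) in GC-KO mice and 0.77 to 3.21 TPM (median 1.52) in FL-KO mice and was named as one of the 8 upregulated DEGs with scaling, at 1.06 ± 0.23 (SE, adjusted p = 0.00164).

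**Figure D3:**
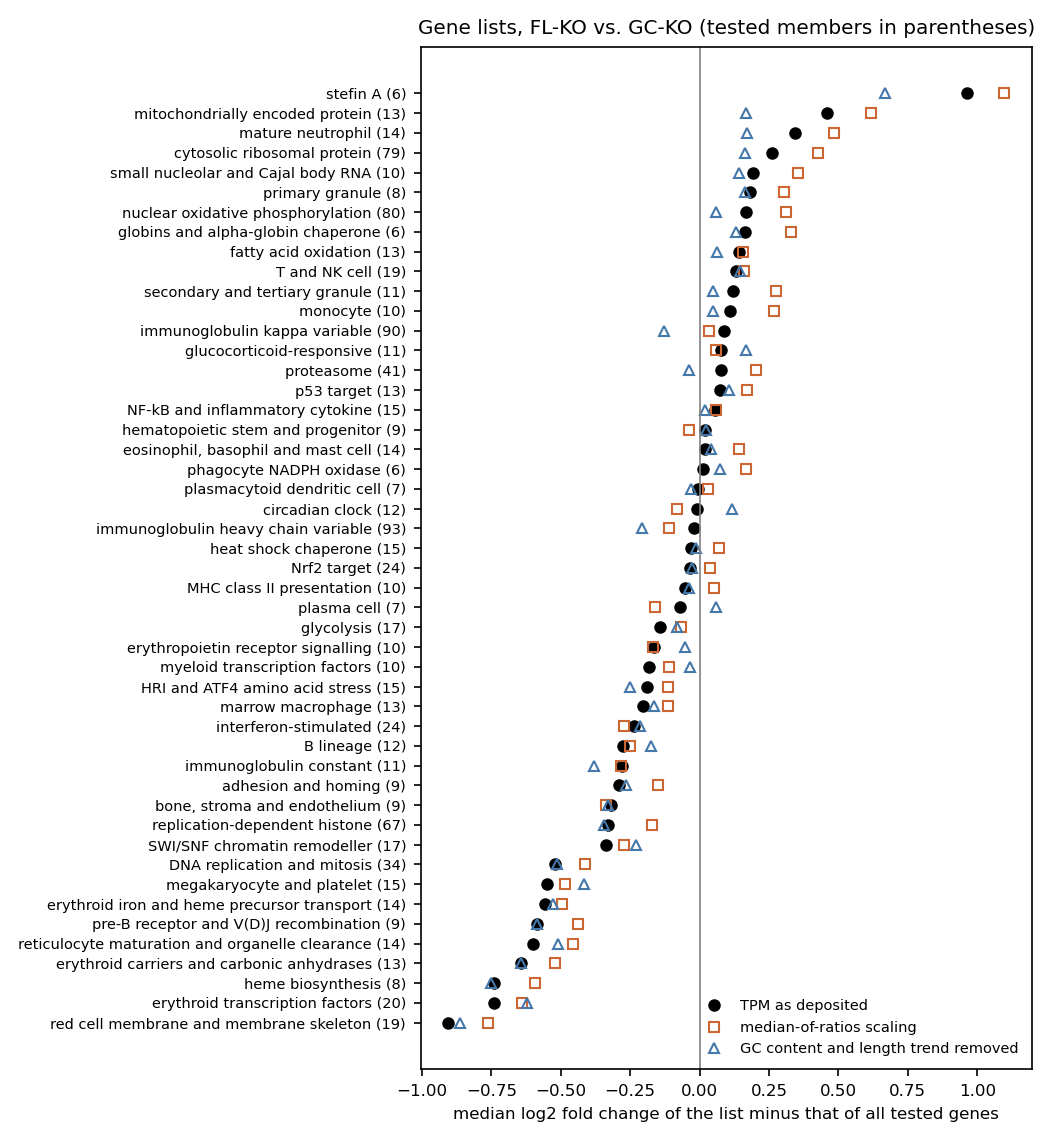
Median log2 fold change of each gene list in FL-KO vs. GC-KO mice minus the median of all tested genes, for each list with at least 6 tested members; black circles are TPM as deposited, orange squares median-of-ratios scaling and blue triangles values with the GC content and length trend removed. Membrane genes lie furthest left at -0.904, followed by erythroid transcription factors and heme biosynthesis, and stefin A lies furthest right at 0.96.

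Transcripts of the mitochondrial genome and of ribosomal proteins were also above the median. Of 13 mitochondrially encoded genes, 0 lay below the median of all genes and 10 were higher with scaling, against 19.1% of all genes. The list median was 0.46 against all genes. mt-Co1, a cytochrome oxidase subunit, was at 2659.8 to 3515 TPM (median 3092) in GC-KO mice and 2677 to 3506 TPM (median 3141) in FL-KO mice, nearly the same range (log2 fold change 0.005, SE 0.16, adjusted p = 0.983), and mt-Atp8, of ATP synthase, was at 258 to 838 TPM (median 536) in GC-KO mice and 556 to 1286 TPM (median 956) in FL-KO mice (log2 fold change 0.85, SE 0.48, adjusted p = 0.145). Gm10925 has all of its windows in mt-Atp6 or another copy and is not a separate observation. Their share of TPM was 0.932 ± 0.0716% (SD, n = 6) on the ground and 1.01 ± 0.153% (SD, n = 6) in flight, with an exact permutation p = 0.394. Of 79 ribosomal protein genes, 70 were higher with scaling, against 19.1% of all genes, and the median was 0.26 against all genes. Rps27 was at 1666 to 1989.7 TPM (median 1795) in GC-KO mice and 1759.6 to 2223 TPM (median 2051) in FL-KO mice (log2 fold change 0.14, SE 0.09, adjusted p = 0.192). Of 80 nuclear genes of oxidative phosphorylation, 52 were higher and 0 lower with scaling, against 19.1% and 20.4% of all genes. With the GC content and length trend removed, the medians of these 3 lists against all genes were 0.17, 0.16 and 0.06.

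Genes that depend on Nrf2 in other settings showed no common direction in mice without it. Of 24 tested Nrf2 target genes, 0 were DEGs, against 2.13% of all genes. With scaling 4 were lower and 9 higher, against 20.4% and 19.1% of all genes. The list median was -0.04 against all genes. Blvrb, biliverdin reductase B, which erythroid cells express strongly, was at 136 to 182 TPM (median 149.96) in GC-KO mice and 60.8 to 112 TPM (median 80.3) in FL-KO mice (log2 fold change -0.86, SE 0.17, adjusted p = 0.000505), whereas Taldo1, of the pentose phosphate pathway, had a log2 change of -0.09 ± 0.14 (SE, adjusted p = 0.606). The small Maf genes Mafg and Mafk, whose proteins pair with Nrf2, changed by -0.69 ± 0.15 (SE, adjusted p = 0.0013) and -0.86 ± 0.15 (SE, adjusted p = 0.000123), and Bach1, which competes for the same sites, by -0.39 ± 0.14 (SE, adjusted p = 0.0297). Interferon-stimulated genes included 22 of 24 that were lower at an adjusted p under 0.1, against 53.1% of all genes, and 10 with scaling, against 20.4%, with a median of -0.23 against all genes and -0.27 with scaling. Irf7, the factor that amplifies interferon production, was at 13.5 to 17.2 TPM (median 14.8) in GC-KO mice and 6.31 to 9.06 TPM (median 7.42) in FL-KO mice (log2 fold change -0.94, SE 0.11, adjusted p = 1.07e-05), and Oas3, a sensor of double-stranded RNA, was a downregulated DEG at 4.37 to 10.03 TPM (median 6.41) in GC-KO mice and 1.52 to 3 TPM (median 2.03) in FL-KO mice (log2 fold change -1.301, SE 0.19, adjusted p = 2.59e-05). Isg15 and Ifi27l2a changed by -0.72 ± 0.13 (SE, adjusted p = 0.000236) and -0.41 ± 0.16 (SE, adjusted p = 0.0484). Among genes of the heme-regulated kinase and Atf4 pathway, the kinase gene Eif2ak1 and the phosphatase regulator Ppp1r15a were DEGs at -1.08 ± 0.17 (SE, adjusted p = 4.6e-05) and -1.16 ± 0.17 (SE, adjusted p = 3.33e-05), and Atf4 changed by -0.61 ± 0.13 (SE, adjusted p = 0.00115). Of the 15 genes of that list, 4 were lower and 2 higher with scaling, against 20.4% and 19.1% of all genes. The higher ones were Psat1 and Chac1, which are named after their values were seen. The list median was -0.19 against all genes and -0.11 with scaling. Smarca4, the ATPase of SWI/SNF chromatin remodellers, was at 5.16 to 12.1 TPM (median 7.305) in GC-KO mice and 2.19 to 4.56 TPM (median 3.42) in FL-KO mice (log2 fold change -1.03, SE 0.22, adjusted p = 0.00121). Of 17 tested SWI/SNF genes, 10 were lower with scaling, against 20.4% of all genes.

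**Figure D4:**
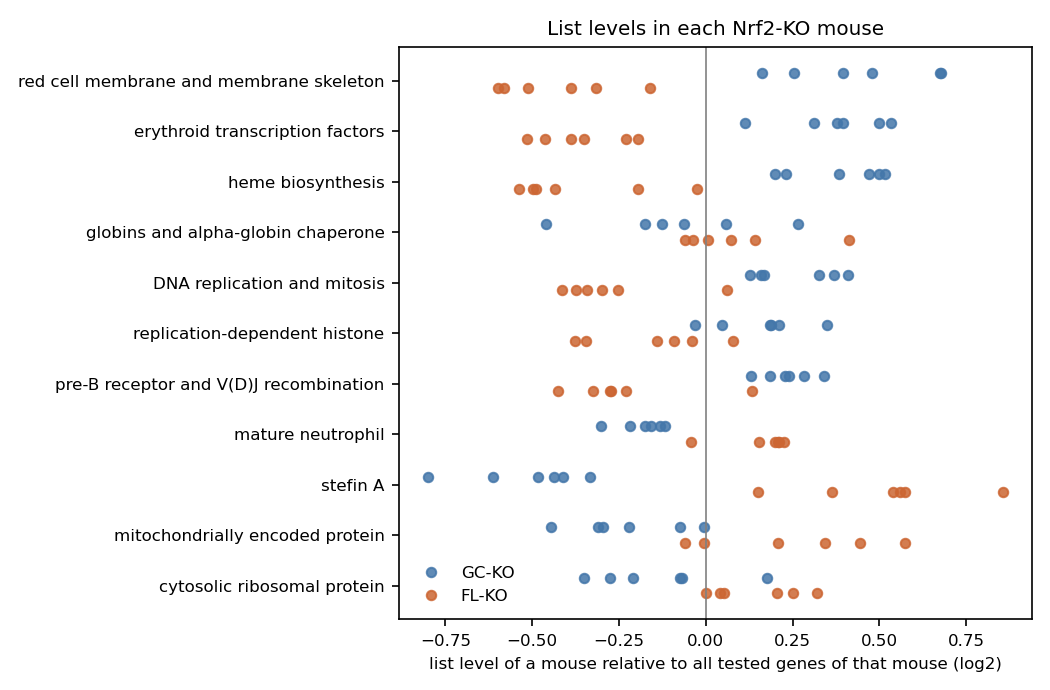
Level of 11 gene lists in each Nrf2-KO mouse (log2), as the median over list members of the deviation from the mean of 12 mice, minus the same median over all tested genes; GC-KO mice are blue and FL-KO mice orange. For membrane genes the mice lie between 0.16 and 0.68 in GC-KO mice and between -0.598 and -0.16 in FL-KO mice, with no overlap, while globins, histones and ribosomal protein genes overlap.

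The lists were also set out mouse by mouse. Against all genes of the same mouse, membrane genes lay between 0.16 and 0.68 in GC-KO mice and between -0.598 and -0.16 in FL-KO mice, transcription factors between 0.11 and 0.53 in GC-KO mice and between -0.51 and -0.196 in FL-KO mice and heme enzymes between 0.201 and 0.52 in GC-KO mice and between -0.54 and -0.03 in FL-KO mice. No group overlapped with the other in these 3 lists. Mature neutrophil genes lay between -0.301 and -0.12 in GC-KO mice and between -0.04 and 0.22 in FL-KO mice and stefin A genes between -0.8002 and -0.33 in GC-KO mice and between 0.15 and 0.86 in FL-KO mice, also without overlap. The lists of primary granules, later granules, phagocyte NADPH oxidase and myeloid transcription factors overlapped by mouse. Primary granule genes lay between -0.27 and 0.27 in GC-KO mice and between -0.02 and 0.22 in FL-KO mice. The flight mouse nearest to the ground mice was mouse 9 for membrane, heme and mature neutrophil genes. The same mouse had the lowest eosinophil genes, as described below.

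The same flight contrast was available in wild-type mice, which share the flight and the sampling sites but no sample with the Nrf2-KO comparison. In FL-WT vs. GC-WT mice, 116 genes (0.938%) were downregulated DEGs, and 78 genes were DEGs in both, which is 29.5% of the 264 and 67.2% of the 116. Of the 264 genes, 255 (96.6%) had a log2 fold change below 0 in wild-type mice, beside 86.4% of all tested genes. Medians against all genes in Nrf2-KO and wild-type mice were -0.904 and -0.91 for membrane genes, -0.74 and -0.73 for heme enzymes, -0.74 and -0.58 for erythroid transcription factors, and 0.96 and 1.35 for stefin A. A difference between the genotypes was tested with the interaction of flight and genotype in limma. At an adjusted p under 0.1, 2 genes (0.0162%) differed. This count was 31 with scaling, 18 with quantile normalization, 51 with the GC content and length trend removed and 22 with the mouse number as a block. It was 0 with a pseudocount of 0.1, without a filter on low values, without the 5 small RNAs, and without any 1 of GC-KO mice 1, 2 and 11 and FL-KO mice 4 and 12. An unadjusted p under 0.05 was found for 428 genes (3.46%), a share below the 0.05 that this threshold gives by itself. Of these, 375 (3.03% of the tested genes) had the lower flight fold change in Nrf2-KO mice. Of all tested genes, 65.8% had a lower flight fold change in Nrf2-KO than in wild-type mice, and 57.6% with scaling. Zfpm1, with -1.18 in wild-type mice, had an interaction of -0.76 ± 0.304 (SE, limma, unadjusted p = 0.0194, adjusted 1), which does not pass the correction. Mknk2 had -0.32 in wild-type mice and an interaction of -1.23 ± 0.27 (SE, limma, adjusted p = 0.203, 0.0313 with scaling).

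Before correction, an interaction p under 0.05 was found for 32 of 67 histone genes and 7 of 14 eosinophil, basophil and mast cell genes. All of them had the lower flight fold change in Nrf2-KO mice, against 3.03% of all genes. Hist1h2ap, which shares most of its sequence with other H2A copies, was at 2628 to 3299 TPM (median 2797) in GC-KO mice and 1238 to 1923 TPM (median 1662) in FL-KO mice, and its log2 fold change was -0.81 in Nrf2-KO and 0.27 in wild-type mice (interaction -1.08 ± 0.203, limma adjusted p = 0.0746). The other gene past the threshold was Gm26917, annotated as a noncoding RNA and named for this result like Hist1h2ap. Gm26917 was at 5748 to 9413 TPM (median 7750.03) in GC-KO mice and 2349 to 4569 TPM (median 2766) in FL-KO mice (interaction -1.46 ± 0.25, limma adjusted p = 0.0475). It lies on chromosome 17, 39843013 to 39846341, with a transcript GC content of 69.1%. Which RNA of this region its reads came from was not tested. The median of the histone genes against all genes was -0.33 in Nrf2-KO and 0.05 in wild-type mice. Copies that share reads are not independent of each other. The eosinophil, basophil and mast cell list had a median of 0.02 against all genes and 0.14 with scaling. Of its 14 genes, 5 were higher and 0 lower with scaling, against 19.1% and 20.4% of all genes. None of its interactions passed the correction at TPM as deposited. Ear1, an eosinophil ribonuclease, was at 139 to 195 TPM (median 174) in GC-KO mice and 38.6 to 177 TPM (median 157) in FL-KO mice and had log2 fold changes of -0.42 in Nrf2-KO and 0.82 in wild-type mice (interaction unadjusted p = 0.00143, limma adjusted 0.572). Prg2, major basic protein, was at 534 to 912 TPM (median 670.2) in GC-KO mice and 195 to 769 TPM (median 577) in FL-KO mice with -0.41 and 0.54 (interaction unadjusted p = 0.00387, limma adjusted 0.863). The lowest flight value in both genes came from FL-KO mouse 9. Against all genes of the same mouse, the whole list was at -0.4985 in that mouse and between 0.089 and 0.279 in the other flight mice.

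**Figure D5:**
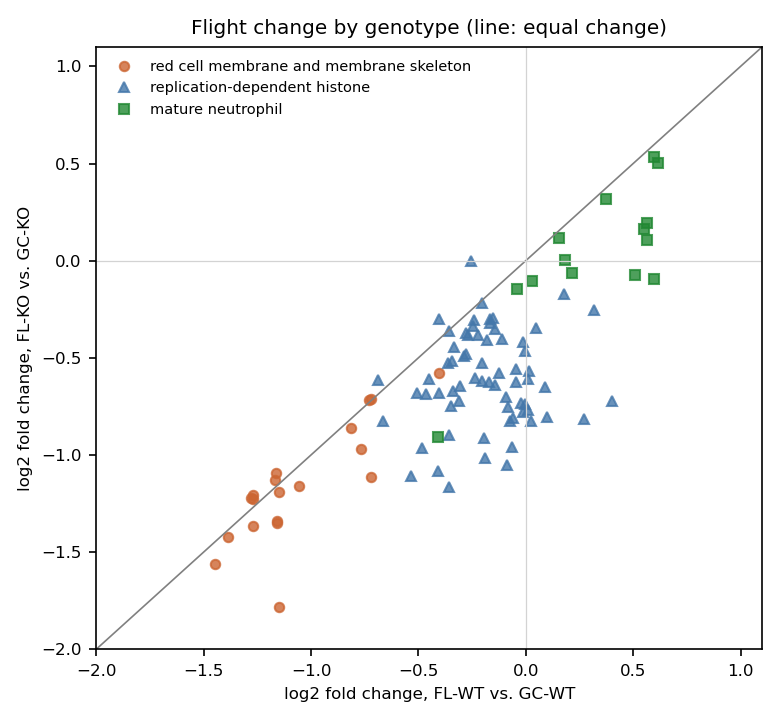
Log2 fold change of flight in wild-type mice (x axis) and in Nrf2-KO mice (y axis) for red cell membrane, histone and mature neutrophil genes; each point is a gene and the line marks equal change. Most membrane genes lie near the line, while most histone and neutrophil genes lie below it.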

How the data were processed

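RNA of 24 bone marrow samples, 6 mice in each of 4 groups, was sequenced by the study with 1 library per mouse. The authors deposited 1 table of TPM per gene and library. The submitters' processing notes name STAR 2.6.1 and RSEM 1.3.1 with the mouse genome GRCm38. The annotation release is not given in the sources used here, and coordinates and transcript lengths were taken from GENCODE M21 on GRCm38 by gene ID, with 862 of 54723 genes matched under another version number of the same ID. TPM is relative to all transcripts of a library and keeps no depth, so no interval or floor from counts is given.

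Genes with TPM above 1 in at least 1 of the 24 libraries were kept. Values were transformed to log2(TPM + 1), and limma 3.58.1 (R 4.3.3) was fitted to the 4 groups with no covariate, so that all 24 libraries share 1 estimate of the spread. P-values were adjusted by the Benjamini-Hochberg method over all 12373 genes. DEGs were genes past an adjusted p of 0.1 with at least a 2-fold change. The interaction of flight and genotype came from the same fit. Library measures were compared with exact two-sided permutation tests, whose smallest p is 0.00216. The fits across genes were tested on simulated data. Genes there varied independently and no shift common to all genes was simulated, so the calls under such a shift were not tested. Tables and figures used Python 3.11.15, pandas 2.3.3, numpy 2.4.6 and matplotlib 3.10.9.

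Values were also computed with a pseudocount of 0.1, other filters on low values, median-of-ratios scaling, quantile normalization, without 5 small RNAs, with a mean-expression trend, in the Nrf2-KO libraries alone, with the mouse number as a block, with the trend in GC content and length removed, with other thresholds and without each of the 12 libraries in turn.

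The text names Nfe2l2, the 10 largest changes each way among DEGs with at least 5 TPM and no overlap, DEGs with scaling, and in each list up to 6 called members and the 4 most abundant. Genes outside this rule are said to be named for their values. The comparison and the 52 gene lists were chosen with earlier results of these data known. Promoters came from RefSeq on GRCm38, which matched 8612 of the 12373 genes. The share of 50-base windows that a gene's transcripts have in common with other genes was counted on the GENCODE transcripts. Some members of the gene lists are counted with their list but are not reported here by name.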

Additional observations from a re-analysis of the deposited data

Results flagged for a closer look

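In each Nrf2-KO group of 6 mice, the gap between the highest or lowest mouse and its neighbour was divided by the range of the group, for each gene the text names and each library measure. The gap passed the critical value of Dixon's test in 18 of 290 groups. Chance flags about 1 in 20 groups.

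FL-KO mouse 11 stood above the other flight mice for Zfpm1 (0.78 of the range, 5.88 TPM against 3.15 to 3.75), Ulk1 (0.829), Tgfb1 (0.769), Epn1 (0.74), Gm26917 (0.646) and Ttyh3 (0.627). FL-KO mouse 9 was highest for Aqp1 (0.648), Lmna (0.636) and Col1a1 (0.743, 4.39 TPM against 0.300 to 1.35). It was lowest for the eosinophil ribonucleases Ear1 (0.682, 38.6 TPM against 133 to 177) and Ear6 (0.638). FL-KO mouse 2 was lowest for Taldo1 (0.724).

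Among ground mice, GC-KO mouse 11 was highest for Urod (0.674), Car2 (0.684), Xpo7 (0.702) and Retnlg (0.739), and it had the lowest share of small structural RNAs (0.758 of the range, 35.4% of TPM against 45.3% to 48.4%). GC-KO mouse 12 was highest for Igkv8-27 (0.894, 63.8 TPM against 4.66 to 10.95).

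The effect of flight differed between Nrf2-KO and wild-type mice at an adjusted p under 0.1 in the interaction test of limma for Hist1h2ap, with a difference of -1.083 on the log2 scale, and for Gm26917, with -1.463. Neither was called with a pseudocount of 0.1, without a filter on low values or without 5 small RNAs.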

How the results depend on the processing

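Of 139 genes with values in the text, 81 were DEGs or higher at an adjusted p under 0.1, and each of the 81 kept its direction under every alternative that was run. The number of calls changed. With median-of-ratios scaling there were 22 downregulated and 8 upregulated DEGs, a median of -0.0012, 31 interaction genes, 9 erythroid DEGs and 856 genes lower and 740 higher without overlap. Quantile normalization gave 25, 7, a median of 0.0317, 18 interaction genes and 11 erythroid DEGs. With the GC content and length trend removed there were 18 and 3 DEGs, a median of 0.0359, 51 interaction genes and 7 erythroid DEGs. A pseudocount of 0.1 gave 925 and 15 DEGs, 0 interaction genes and 56 erythroid DEGs. Without a filter on low values the median was -0.0576, with 0 interaction genes. Without 5 small RNAs, 189 and 5 genes were DEGs, with 0 interaction genes. Nrf2-KO libraries alone gave 1 upregulated DEG. An adjusted p under 0.05 left 1 interaction gene. Without a minimum fold, 6565 genes were lower and 37 higher, 93 of the lower ones erythroid. Of the 81 called genes, 32 stayed called with scaling, 33 with quantile normalization and 24 with the trend removed.

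Without each library in turn, downregulated DEGs numbered 172 to 380 and upregulated ones 0 to 2. The median lay between -0.32 and -0.24, interaction genes between 0 and 5, and erythroid DEGs between 39 and 56. The count of 172 was without GC-KO mouse 11, and 167 of these were among the 264. Genes without overlap numbered 2290 to 3917 lower, the highest without FL-KO mouse 11, and 4 to 10 higher. The cause of these changes was not tested.

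The groups share mouse numbers. Deviations of same-numbered mice from their group means correlated at -0.0053 to 0.273, over 0.1 in 3 of 6 pairs, and 3 of 6 mice matched their own number best, so the numbers were not taken as a pairing. With the replicate block there were 265 downregulated and 0 upregulated DEGs and 22 interaction genes.

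TPM keeps no depth, so the precision of genes at a few TPM is known only from the spread between mice. Genes that share sequence with copies are uncertain.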

Other observations

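Several gene groups outside the main lineages are given here for FL-KO mice against GC-KO mice. Each is given by its tested genes that were lower or higher at an adjusted p under 0.1 in limma with median-of-ratios scaling, beside 20.4% lower and 19.1% higher among all tested genes, and by its median minus that of all genes, on the log2 scale at TPM as deposited. Of 12 circadian clock genes, 4 lower and 2 higher were found, with a median of -0.01. The 15 heat shock chaperone genes had 2 lower and 3 higher (-0.03), and the 15 genes of NF-kB and inflammatory cytokines 1 lower and 3 higher (0.05). Glucocorticoid-responsive genes, 11 in number, had 0 lower and 2 higher (0.08). Their level relative to all genes of the same mouse varied widely within both groups, from -0.45 to 0.33 in GC-KO mice and from -0.30 to 0.53 in FL-KO mice. In both groups, mice 1, 2 and 4 lay above mice 9, 11 and 12 in this list. What the mouse numbers stand for is not given in the sources used here.

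The p53 target genes had 1 lower and 5 higher of 13 (0.07). In each flight mouse their level relative to all genes was above that of each ground mouse, at -0.12 to 0.0016 in GC-KO and 0.0079 to 0.09 in FL-KO mice. Proteasome genes had 4 lower and 21 higher of 41, with a median of 0.08 that turned to -0.04 with the GC content and length trend removed. Glycolysis genes had 5 lower and 3 higher of 17 (-0.14), and fatty acid oxidation genes 2 lower and 5 higher of 13 (0.14). MHC class II presentation genes had 0 lower and 1 higher of 10 (-0.05), and genes of adhesion and homing 2 lower and 1 higher of 9 (-0.29). The subunits of the phagocyte NADPH oxidase had 0 lower and 3 higher of 6 (0.01), and myeloid transcription factors 2 lower and 2 higher of 10 (-0.18). Plasma cell genes had 1 lower and 1 higher of 7 (-0.07), and osteoclast genes 1 lower and 0 higher of 4 (-0.07). Immunoglobulin constant regions had 1 lower and 0 higher of 11 (-0.28), and small nucleolar and Cajal body RNAs 0 lower and 1 higher of 10 (0.19).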
